A study of Mus musculus with 60 samples.

Results

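The genes described here are 10 receptors for opioids and other neuropeptides: the mu, delta, kappa and nociceptin opioid receptors (Oprm1, Oprd1, Oprk1 and Oprl1), the somatostatin receptors Sstr1, Sstr2 and Sstr3, the neuropeptide Y receptor Npy1r, the cholecystokinin B receptor Cckbr, and Vipr1, a receptor for vasoactive intestinal peptide. They were taken by gene name from a deposited table of 55414 genes, where each name matched 1 row. The table holds RNA-seq counts from 60 libraries of mPFC (medial prefrontal cortex) taken from mice of the inbred strain DBA2/J that express GFP-L10a, a large-subunit ribosomal protein fused to a fluorescent tag. In 30 libraries, called IP, RNA was taken after pulldown of tagged ribosomes with an antibody against GFP, and the labels give the cells as "aPVT projector". The other 30, called Input, are bulk mPFC with no antibody.

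All mice share the strain and the tagged protein, and the series describes stress by social defeat over 5 days. Besides a group labelled NS, the labels name 4 subtypes: SA, SA:ANH, ANH and RES. They do not spell out these names, do not say which groups were defeated, and give neither age, sex nor the driver that places the tag in its cells. With 5 groups and both fractions there are 10 sets of 6 libraries, and whether a set comes from 6 mice is not stated, so p-values measure the spread between libraries, which may be partly technical. IP against Input asks which receptor transcripts are on the tagged ribosomes relative to the tissue. The comparisons of groups ask whether those levels differ between subtypes and NS.

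Neuropeptide receptors are G protein-coupled receptors of the plasma membrane that answer peptides released from other neurons. The opioid, somatostatin and neuropeptide Y receptors couple to inhibitory G proteins, which lower cyclic AMP, open potassium channels and close calcium channels, so that they damp firing and transmitter release. Cckbr couples mainly to Gq and Vipr1 mainly to Gs, and both are generally excitatory. In cortex most of the peptides for these receptors are made by interneurons, while cholecystokinin and pituitary adenylate cyclase-activating polypeptide are also made by pyramidal cells.

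RefSeq promoter sequences of build GRCm38.p6 were found for 8 of the 10 receptors, with 13 start sites between them, and the entries for Oprk1 and Sstr1 were not found. The 250 bases before the start site are shown for 4 receptors with 1 listed start site each whose levels differed between groups. Npy1r also meets this, but its stretch overlaps the annotated gene and is not shown. They are written 5′ to 3′ on the strand of the gene, Oprd1 from chr4:132144487-132144736 (minus), Sstr2 from chr11:113619077-113619326 (plus), Cckbr from chr7:105425481-105425730 (plus) and Vipr1 from chr9:121642466-121642715 (plus). Capitals mark matches on either strand to the cyclic AMP response element TGACGTCA, the GC box GGGCGG, the CCAAT box CCAAT or the TATA box TATAAA.
Oprd1: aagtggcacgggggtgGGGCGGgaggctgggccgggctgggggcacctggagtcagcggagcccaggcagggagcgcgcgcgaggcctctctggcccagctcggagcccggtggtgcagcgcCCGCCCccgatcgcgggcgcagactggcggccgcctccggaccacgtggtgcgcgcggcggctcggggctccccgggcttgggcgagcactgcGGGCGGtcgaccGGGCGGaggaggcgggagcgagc
Sstr2: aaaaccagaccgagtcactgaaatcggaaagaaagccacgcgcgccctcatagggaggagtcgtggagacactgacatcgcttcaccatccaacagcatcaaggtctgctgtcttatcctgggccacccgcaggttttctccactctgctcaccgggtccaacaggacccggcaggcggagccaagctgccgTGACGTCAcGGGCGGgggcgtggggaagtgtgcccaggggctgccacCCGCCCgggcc
Cckbr: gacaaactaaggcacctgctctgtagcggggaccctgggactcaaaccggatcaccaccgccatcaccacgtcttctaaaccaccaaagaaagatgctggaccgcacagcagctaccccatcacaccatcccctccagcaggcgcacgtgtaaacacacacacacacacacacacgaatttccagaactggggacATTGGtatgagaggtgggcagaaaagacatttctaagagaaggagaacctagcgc
Vipr1: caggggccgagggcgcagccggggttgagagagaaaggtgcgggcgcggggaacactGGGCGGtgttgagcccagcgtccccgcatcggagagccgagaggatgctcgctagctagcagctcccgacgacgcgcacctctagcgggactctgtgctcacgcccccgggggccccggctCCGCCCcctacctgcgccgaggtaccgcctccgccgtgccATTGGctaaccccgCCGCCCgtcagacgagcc

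The Oprd1 stretch is 80.0% G or C and holds 4 GC boxes. The Vipr1 stretch is 72.8% G or C, with 3 GC boxes and 1 CCAAT box, and the Sstr2 stretch is 63.6% G or C, with 1 cyclic AMP response element and 2 GC boxes. The Cckbr stretch is 53.6% G or C, close to the median of 52.4% over all 32851 listed promoters, and holds 1 CCAAT box. A TATA box was found in none of the 4. Over the same 250 bases of all listed promoters, 1.55% held the cyclic AMP response element, 32.7% a GC box, 33.8% a CCAAT box and 12.4% a TATA box. These matches describe the letters only.

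Library totals lay between 19078906 and 27073413 counts. Rpl10a, the gene of the tagged protein, was at 406 ± 51.7 CPM (a count scaled to a common library total, SD, n = 30) in IP and 83.7 ± 10.2 CPM in Input, with no overlap. Among IP groups Rpl10a was at 372 ± 15.9 CPM in NS and differed from it in SA:ANH (426 ± 26.7 CPM, log2 0.22 ± 0.05, adjusted p = 0.00193 in edgeR) and RES (486 ± 26.4 CPM, log2 0.39 ± 0.05, adjusted p = 5.22e-06). Its part in the differences between IP groups was not tested. Summed levels of 6 excitatory neuron markers were higher in IP (group means of 4540 to 5430 CPM) than in Input (3250 to 3530 CPM). The sums of 10 inhibitory neuron markers were 407 to 487 CPM in IP and 1250 to 1320 CPM in Input, and those of 5 microglial markers 5.52 to 7.78 and 278 to 313 CPM. The labels give no markers of "aPVT projector" cells, so that name was not checked further. On the first principal component of the Input libraries, SA:ANH Input replicates 1 and 2 lay at 46.5 and 43.2, while the other 4 of that group lay between 5.1 and 18.2. Some of the results that use replicates 1 and 2 are also given without them.

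The receptors spanned a wide range of levels. Cckbr was the most abundant, and Oprm1 was close to absent. Per kilobase of the gene length given in the table, Cckbr averaged 84.0 ± 5.17 CPM in IP and 71.7 ± 4.86 CPM in Input (SD, n = 30 each). Sstr2 followed at 21.1 ± 3.02 in IP and 28.1 ± 2.92 in Input. Oprl1 at 14.3 ± 2.42 and Sstr1 at 13.2 ± 2.17 CPM per kilobase in IP did not differ beyond their spread, nor did they in Input, at 18.6 ± 2.5 and 19.3 ± 2.26. Below them in IP came Npy1r at 9.56, Sstr3 at 5.13 and Vipr1 at 2.99 CPM per kilobase. Oprd1 at 1.53 ± 0.571 and Oprk1 at 1.29 ± 0.615 CPM per kilobase lay within each other's spread in IP, whereas in Input Oprd1 at 2.49 ± 0.372 was above Oprk1 at 0.845 ± 0.273 and next to Vipr1 at 2.83 ± 0.601.

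Oprm1 encodes the mu receptor, the target of morphine (chr10:6758506-7038198, plus strand, in GENCODE M21 on GRCm38). It had 160 counts in all 60 libraries together, 61 in IP and 99 in Input, and 0 counts in 26 libraries. No library held more than 16 counts, or 0.836 CPM, and the gene did not pass the filter on low counts, so the reported fits did not test it. With no filter, edgeR's test of any difference among groups did not pass in IP (adjusted p = 0.327) or Input (0.7). Over the 6 libraries of a group the level ran from 0.0144 CPM in SA:ANH IP (2 counts, exact 95% Poisson interval 0.00174 to 0.0520) to 0.199 CPM in SA:ANH Input (27 counts, 0.131 to 0.289). The intervals cover counting error only. In the deposited table Oprm1 overlaps Ipcef1 and Gm10945, and no source used here gives the strand setting of the counting, so part of these few counts could come from those genes.

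**Figure D1:**
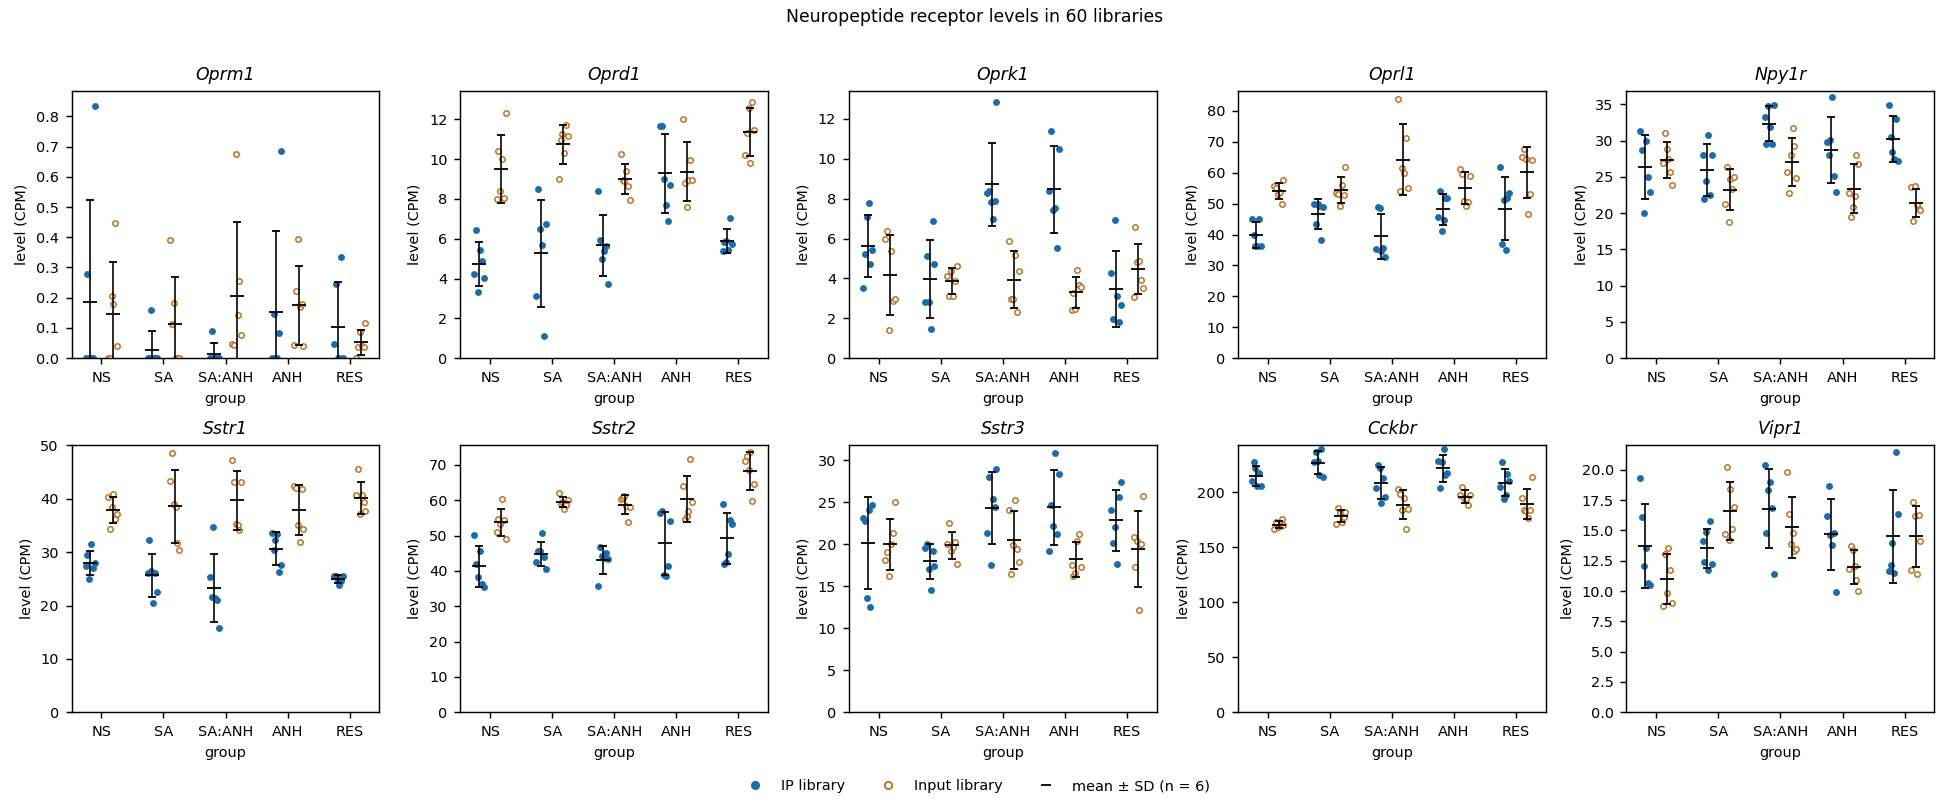
Levels of the 10 receptors in every library (CPM, y axis from 0) by group (x axis), with IP libraries as filled blue points, Input libraries as open orange points and black bars for the mean ± SD of 6 libraries. Oprk1 stands higher in SA:ANH and ANH than in SA and RES among IP libraries, Oprd1 has its highest IP mean in ANH, and Oprm1 stays under 0.836 CPM.

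Between the fractions, the 9 tested receptors split evenly. Oprk1, Npy1r, Cckbr and Sstr3 were higher on tagged ribosomes, Oprd1, Sstr1, Sstr2 and Oprl1 were lower, and Vipr1 did not pass. Of all 18937 genes tested, 32.8% were higher in IP and 42.6% lower, so a difference in 8 of 9 receptors is near the background. The median log2 difference was 0.09 over the receptors and -0.08 over all genes tested. Each adjusted p comes from the quasi-likelihood test of edgeR, adjusted by Benjamini-Hochberg over all genes tested, and log2 differences are given ± SE. Fewer cells of a type and less RNA per cell cannot be told apart in such libraries.

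Oprd1, the delta receptor for enkephalins, had the largest difference among the receptors, at 6.16 ± 2.30 CPM in IP and 10 ± 1.5 CPM in Input (log2 -0.73 ± 0.09, adjusted p = 2.62e-10). Sstr1 was at 26.5 ± 4.37 CPM in IP and 38.9 ± 4.55 CPM in Input (log2 -0.56 ± 0.05, adjusted p = 1.75e-15). Sstr2 was also lower in IP (log2 -0.41 ± 0.04, adjusted p = 1.94e-14), as was Oprl1, the nociceptin receptor (log2 -0.38 ± 0.05, adjusted p = 4.06e-10). Sstr1 and Sstr2 were lower in IP in all 5 groups, Oprd1 in 4 and Oprl1 in 3, where within a single group 52.8% of all genes passed in NS, 55.8% in SA, 55.4% in SA:ANH, 52.8% in ANH and 52.8% in RES.

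Oprk1, the kappa receptor for dynorphins, was at 6.05 ± 2.88 CPM in IP and 3.95 ± 1.28 CPM in Input (log2 0.52 ± 0.13, adjusted p = 0.000332). Within groups it passed in SA:ANH (log2 1.14 ± 0.29, adjusted p = 0.000657) and ANH (log2 1.35 ± 0.29, adjusted p = 8.37e-05), where IP and Input libraries did not overlap. In NS it was 0.43 ± 0.29, in SA 0.04 ± 0.29 and in RES -0.37 ± 0.29, none of which passed. Cckbr, at 216 ± 13.3 CPM in IP and 185 ± 12.5 CPM in Input, differed by 0.23 ± 0.02 (adjusted p = 3.09e-16) and was higher in IP in all 5 groups, though in SA:ANH the call was lost with RLE scaling (adjusted p = 0.0541) and with DESeq2 (adjusted p = 0.0520).

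Npy1r differed by as much on the log2 scale as Cckbr (0.23 ± 0.05, adjusted p = 1.16e-05), at 28.7 ± 4.22 CPM in IP and 24.5 ± 3.52 CPM in Input. It passed within SA:ANH (0.26 ± 0.10, adjusted p = 0.0313), ANH and RES, and in NS the difference was -0.05 ± 0.10. The call in SA:ANH was lost with RLE scaling (adjusted p = 0.0808), with DESeq2 (0.0787) and without SA:ANH Input replicates 1 and 2 (0.18 ± 0.12, adjusted p = 0.204). The call for Sstr3 (log2 0.15 ± 0.07, adjusted p = 0.0308) was lost with RLE scaling (adjusted p = 0.130), DESeq2 (0.127), limma voom (0.0553) and without SA:ANH Input replicates 1 and 2 (0.0551). Vipr1 differed by 0.09 ± 0.07 (adjusted p = 0.228).

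**Figure D2:**
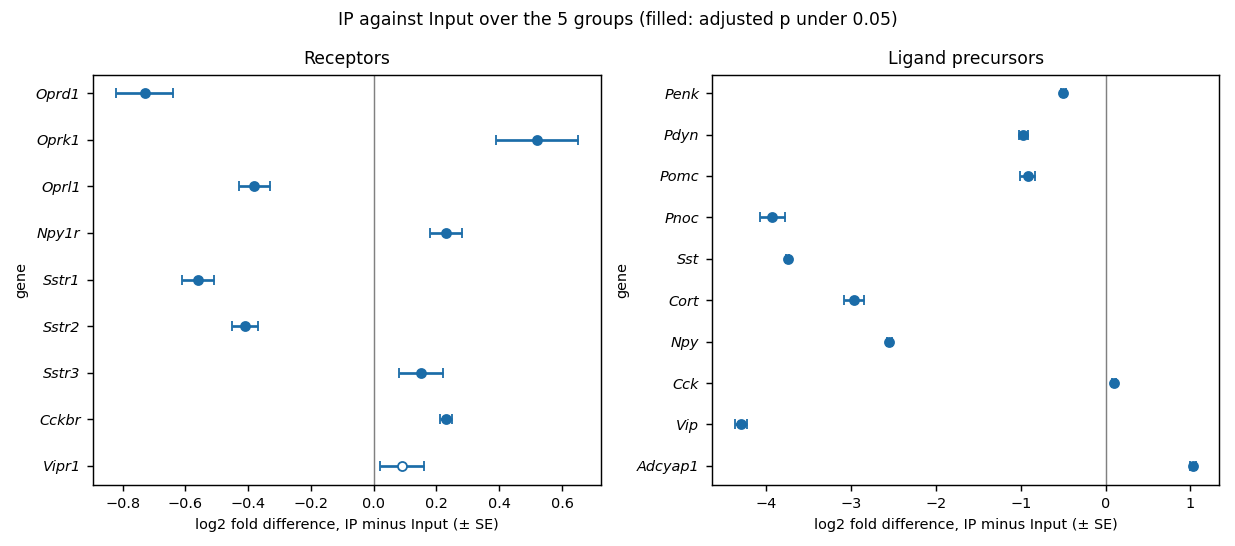
Log2 fold difference of IP minus Input (x axis, points ± SE) for the 9 tested receptors (left) and 10 ligand precursor genes (right), from the fit of all 60 libraries, with filled points where the adjusted p is under 0.05. Receptor differences lie between -0.73 and 0.52, while those of Vip, Pnoc and Sst lie at -4.30, -3.93 and -3.75.

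Among the subtypes, the widest differences of any receptor were those of Oprk1 in IP (chr1:5588466-5606131, plus strand). The lowest, median and highest of 6 IP libraries were 7.0, 8.10 and 12.9 CPM in SA:ANH and 5.52, 7.95 and 11.4 CPM in ANH. They were 3.51, 5.33 and 7.76 CPM in NS, 1.48, 3.77 and 6.87 CPM in SA, and 1.82, 2.88 and 6.94 CPM in RES. Every SA:ANH library was above every SA and RES library, and NS overlapped all 4 subtypes.

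The mean of the 2 subtypes whose name holds ANH was above that of the other 2 by 1.20 ± 0.21 on the log2 scale (adjusted p = 7.65e-05), and the adjusted p was at most 0.00023 as each of the 24 libraries was left out in turn. Of all genes tested in IP, 11.6% passed in that contrast. Among pairs of subtypes, SA was lower than SA:ANH (log2 -1.13 ± 0.29, adjusted p = 0.00853) and lower than ANH (log2 -1.06 ± 0.29, adjusted p = 0.00692). RES was also lower than SA:ANH (SA:ANH minus RES 1.35 ± 0.30, adjusted p = 0.00124) and than ANH (ANH minus RES 1.27 ± 0.30, adjusted p = 0.00398). These 4 calls held as each library was left out, with adjusted p up to 0.0315, and 9.53%, 23%, 13.8% and 9.21% of all genes passed in the same 4 comparisons. SA:ANH and ANH differed by 0.07 ± 0.29 (adjusted p = 0.902), and SA and RES by 0.21 ± 0.30 (adjusted p = 0.746).

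Against NS, Oprk1 in IP was higher in SA:ANH by 0.65 ± 0.29 (adjusted p = 0.115) and in ANH by 0.58 ± 0.29 (adjusted p = 0.260), and differed in SA by -0.48 ± 0.29 (adjusted p = 0.299) and in RES by -0.70 ± 0.29 (adjusted p = 0.207), so none passed. In a fit of only the 12 libraries compared, the difference in SA:ANH passed (0.64 ± 0.20, adjusted p = 0.0261). In Input the 5 group means lay between 3.31 ± 0.765 CPM in ANH and 4.46 ± 1.24 CPM in RES, and no comparison of groups passed. The ANH contrast in Input was -0.21 ± 0.19 (adjusted p = 0.584). Whether the IP and Input contrasts differ from each other was not tested directly for the subtypes, and the difference from NS was not shown to be unlike in the fractions for ANH (0.92 ± 0.41, adjusted p = 0.221) or SA:ANH (0.71 ± 0.41, adjusted p = 0.269).

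Marker sums also differed between the IP groups. The summed level of 5 layer 5 extratelencephalic markers (Fezf2, Bcl11b, Pou3f1, Parm1 and Tox2) was 394 to 441 CPM in SA:ANH, 495 to 553 in ANH, 576 to 704 in RES, 688 to 752 in NS and 759 to 837 in SA. That of 5 layer 6 corticothalamic markers was 257 to 295 CPM in SA:ANH, 314 to 345 in ANH, 393 to 433 in RES, 396 to 455 in NS, and it averaged 468 ± 19.4 CPM in SA. No marker of either list was at 0. The Oprk1 means in IP were 8.72 CPM in SA:ANH, 8.46 in ANH, 3.46 in RES, 5.63 in NS and 3.97 in SA. RES had the lowest Oprk1 mean, with both sums on average between those of ANH and NS. The sum of 6 excitatory neuron markers averaged 4540 ± 195 CPM in SA, 4880 ± 140 in RES, 5190 ± 151 in SA:ANH, 5410 ± 230 in NS and 5430 ± 246 in ANH. The part of these markers in the Oprk1 result was not tested. In Input the layer 5 sums had group means of 344 to 360 CPM.

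**Figure D3:**
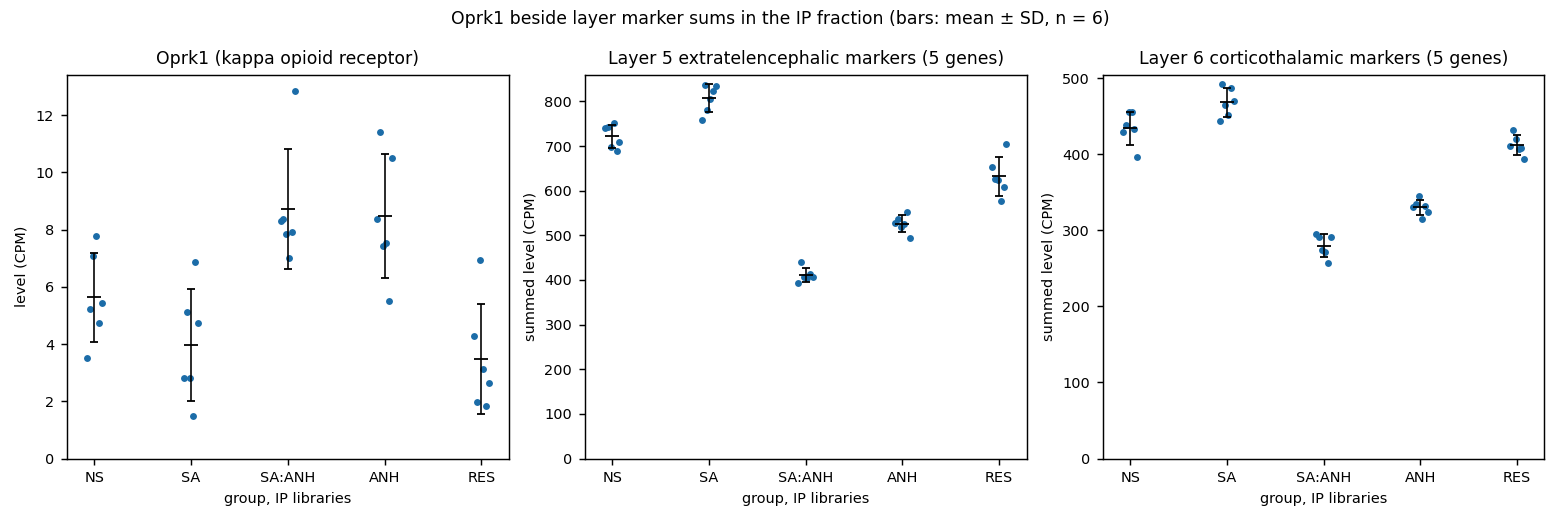
Oprk1 level (left, CPM) and the summed levels of 5 layer 5 extratelencephalic (middle) and 5 layer 6 corticothalamic markers (right, CPM) in the 30 IP libraries by group, with bars for the mean ± SD of 6. SA:ANH and ANH hold the highest Oprk1 means (8.72 and 8.46 CPM) and the lowest marker sums. RES holds the lowest Oprk1 mean (3.46 CPM), with both sums on average between those of ANH and NS.

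Oprd1 (chr4:132110726-132144486, minus strand) followed another pattern, with its highest mean in ANH in IP. The lowest, median and highest IP libraries were 6.91, 8.87 and 11.7 CPM in ANH and 3.31, 4.55 and 6.42 CPM in NS, with no overlap. The difference was 0.97 ± 0.27 (adjusted p = 0.0195), and the adjusted p rose to 0.0539 without NS IP replicate 3. Of all genes, 7.4% passed in ANH against NS in IP. SA libraries spread from 1.14 to 8.48 CPM with a median of 6.08, SA:ANH from 3.73 to 8.39 with a median of 5.51, and RES from 5.38 to 7.05 with a median of 5.78, all 3 overlapping ANH.

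Oprd1 was lower in SA than in ANH (log2 -0.79 ± 0.27, adjusted p = 0.0274), a call lost without SA IP replicate 1 (0.0680), ANH IP replicate 1 (0.0616) or ANH IP replicate 2 (0.0623), and also in a fit of only the 12 libraries compared (0.0611). The differences between ANH and the remaining subtypes did not pass in edgeR, at -0.67 ± 0.26 for SA:ANH minus ANH (adjusted p = 0.0756) and 0.64 ± 0.26 for ANH minus RES (adjusted p = 0.131). Fits of only the 12 libraries compared called both (0.0177 and 0.0180), and DESeq2 called the first (0.0444). In bulk tissue Oprd1 was at 9.37 ± 1.5 CPM in ANH and 9.52 ± 1.70 CPM in NS (log2 -0.02 ± 0.12, adjusted p = 0.960). The difference between ANH and NS was larger in IP than in Input by 1.0 ± 0.29 (adjusted p = 0.0401, and 0.0692 with no filter on low counts), where 3.62% of all genes passed. In ANH the IP and Input levels were accordingly level (log2 -0.02 ± 0.21), against -1.03 to -0.67 in the other 4 groups. Within Input, the ANH contrast was -0.27 ± 0.08 (adjusted p = 0.0389, with 7.71% of all genes passing), and the call was lost in 12 of 24 fits that each left out 1 library (SA Input replicates 2, 3, 5 and 6, SA:ANH Input 5 and 6, ANH Input 2, 3, 4 and 6, and RES Input 3 and 5), with adjusted p up to 0.0712.

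Oligodendrocyte markers, 8 genes with none at 0, also differed between IP groups. Their summed level was 661 to 694 CPM in ANH and 958 to 1080 CPM in RES, against 246 to 294 in NS, 211 to 236 in SA and 148 to 178 in SA:ANH. The Oprd1 means in IP were 9.275 CPM in ANH, 5.883 in RES, 4.715 in NS, 5.265 in SA and 5.667 in SA:ANH. The part of these markers in the Oprd1 result was not tested.

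Oprl1 (chr2:181715016-181720985, plus strand) did not pass in any comparison of groups in edgeR, while the test of any difference in IP passed with DESeq2 (adjusted p = 0.0381, against 0.0853 in edgeR). In IP its group means ran from 39.4 ± 7.42 CPM in SA:ANH to 48.4 ± 10.3 CPM in RES, with libraries from 32.6 to 61.8 CPM. In Input they ran from 54.2 ± 2.61 CPM in NS to 64.3 ± 11.4 CPM in SA:ANH, with libraries from 46.7 to 83.9 CPM. The largest difference from NS was that of RES in IP, 0.29 ± 0.12 (adjusted p = 0.191).

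Of the somatostatin receptors, which mediate the inhibitory action of the peptide made by Sst interneurons, Sstr2 (chr11:113619342-113626028, plus strand) stood out in bulk tissue. The lowest, median and highest Input libraries were 59.7, 69.8 and 73.8 CPM in RES and 48.9, 53.9 and 60.2 CPM in NS, so the groups overlapped only at their edges. RES was higher by 0.35 ± 0.06 (adjusted p = 0.000254), and the adjusted p was at most 0.00173 as each of the 12 libraries was left out. Of all genes, 3.23% passed in RES against NS in Input. SA, SA:ANH and ANH were higher than NS by 0.15 ± 0.06, 0.13 ± 0.06 and 0.17 ± 0.06, and none of these passed. In IP, Sstr2 was at 49.3 ± 7.18 CPM in RES and 41.3 ± 5.73 CPM in NS (log2 0.26 ± 0.11, adjusted p = 0.190), and the differences in the fractions were not shown to be unlike (-0.09 ± 0.12, adjusted p = 0.817). Sstr2 lies inside the interval of Slc39a11 on the opposite strand in the deposited table, and reads of the pair cannot be told apart if the counting ignored strand.

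Sstr1 (chr12:58211772-58214444, plus strand) and Sstr3 (chr15:78537008-78544685, minus strand) did not differ from NS in any group or fraction past the threshold. Between subtypes in IP, Sstr1 was lower in SA:ANH (23.4 ± 6.36 CPM, libraries from 15.8 to 34.7) than in ANH (30.6 ± 3.08 CPM, libraries from 26.3 to 33.7), with overlap (log2 -0.36 ± 0.12, adjusted p = 0.0391, with 17.9% of all genes passing). The call was lost in 7 of 12 fits that each left out 1 library (SA:ANH IP replicates 2, 4, 5 and 6 and ANH IP replicates 1, 3 and 4), with adjusted p up to 0.108, and also in a fit of only the 12 libraries compared (0.0831). Sstr3 was lower in SA (14.6, 18.3 and 20.1 CPM as lowest, median and highest) than in ANH (19.2, 23.4 and 30.9 CPM), with an overlap of the ranges (log2 -0.41 ± 0.15, adjusted p = 0.0466). That call was lost without SA IP replicate 3, 4 or 6 or ANH IP replicate 2, 4 or 6, with adjusted p up to 0.120. In Input neither gene passed in any comparison of groups.

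Npy1r (chr8:66697192-66706792, plus strand), a main receptor for neuropeptide Y in cortex, had 1 call against NS in each fraction, in different groups and opposite directions. In IP the lowest, median and highest libraries were 29.5, 32.6 and 34.9 CPM in SA:ANH and 20.1, 26.9 and 31.3 CPM in NS, which overlap, and SA:ANH was higher by 0.32 ± 0.11 (adjusted p = 0.0350). Of all genes, 19.7% passed in SA:ANH against NS in IP. In Input the libraries were 18.9, 20.8 and 23.8 CPM in RES and 23.9, 27.2 and 31.1 CPM in NS, without overlap, and RES was lower (log2 -0.35 ± 0.10, adjusted p = 0.0362).

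Neither Npy1r call held as each library was left out. The first was lost without SA:ANH IP replicate 1, 3, 4 or 6 or NS IP replicate 3, 5 or 6, with adjusted p up to 0.126, and with no filter on low counts (0.0705). The second was lost without RES Input replicate 2, 4, 5 or 6 or NS Input replicate 1, 2, 3 or 4, with adjusted p up to 0.103, and with no filter (0.0554). RES minus NS in IP was 0.20 ± 0.11 (adjusted p = 0.375), and it exceeded the difference in Input by 0.55 ± 0.15 (adjusted p = 0.0240), in a comparison where 2.69% of all genes passed. SA and ANH in Input were at 23.2 ± 2.80 and 23.4 ± 3.37 CPM, and their differences from NS did not pass (log2 -0.24 ± 0.10 and -0.22 ± 0.10).

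Cckbr (chr7:105425731-105470898, plus strand) varied little, with all 60 libraries between 166.4 and 239.5 CPM, yet differed between Input groups. In Input the lowest, median and highest libraries were 188, 196 and 205 CPM in ANH and 166.8, 169.8 and 175.3 CPM in NS, with no overlap. ANH was higher by 0.20 ± 0.04 (adjusted p = 0.0029), and the adjusted p was at most 0.0134 as each of the 12 libraries was left out. Of all genes, 2.62% passed in ANH against NS in Input. RES was higher by 0.15 ± 0.04 (adjusted p = 0.0324), without overlap. That call was lost without RES Input replicate 1 or 6 or NS Input replicate 1, 2, 3, 4 or 6, with adjusted p up to 0.110, and with no filter on low counts (0.0577).

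SA:ANH was higher than NS in Cckbr by 0.14 ± 0.04 in Input (adjusted p = 0.0343), and by 0.09 ± 0.04 (adjusted p = 0.364) without SA:ANH Input replicates 1 and 2. Leaving out any 1 of SA:ANH Input replicates 1 to 4 or NS Input replicates 1, 3, 4 and 6 also ended the call, with adjusted p up to 0.113. SA was lower than ANH without overlap (log2 -0.14 ± 0.04, adjusted p = 0.0299). That call was lost without SA Input replicate 1, 3, 4 or 5 or ANH Input replicate 1, 2, 3 or 6, with adjusted p up to 0.0894. In IP the group means of Cckbr were between 208 ± 14.3 CPM in SA:ANH and 227 ± 10.5 CPM in SA, and no comparison of groups passed in edgeR. The difference between SA:ANH and NS was lower in IP than in Input (-0.19 ± 0.06, adjusted p = 0.0267, with 15.2% of all genes passing), and not without the same 2 libraries (-0.13 ± 0.07, adjusted p = 0.249).

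Vipr1 (chr9:121642716-121672954, plus strand) had the largest difference from NS of any receptor in Input. The lowest, median and highest libraries were 14.2, 16.0 and 20.2 CPM in SA and 8.80, 10.8 and 13.5 CPM in NS, with no overlap. SA was higher by 0.59 ± 0.13 (adjusted p = 0.0052), and the adjusted p stayed at or under 0.0229 as each library was left out. Of all genes, 2.83% passed in SA against NS in Input. SA was also higher than ANH, at 10, 12 and 13.7 CPM, without overlap (log2 0.46 ± 0.13, adjusted p = 0.0188), which rose to 0.0551 without SA Input replicate 2 and 0.0522 without ANH Input replicate 6.

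SA:ANH was higher than NS in Vipr1 by 0.47 ± 0.13 (adjusted p = 0.0241, with 5.65% of all genes passing), and by 0.33 ± 0.14 (adjusted p = 0.272) without SA:ANH Input replicates 1 and 2. Leaving out SA:ANH Input replicate 1 or 2 or NS Input replicate 1, 3 or 6 alone also ended the call, with adjusted p up to 0.0981. RES was higher by 0.41 ± 0.13 (adjusted p = 0.0763). In IP, Vipr1 was at 13.5 ± 1.63 CPM in SA and 13.7 ± 3.46 CPM in NS (log2 0.00 ± 0.17, adjusted p = 0.996). The difference between SA and NS in IP minus that in Input was -0.62 ± 0.22 (adjusted p = 0.0610), which did not pass. The summed level of the oligodendrocyte markers in Input was 2470 to 2610 CPM in NS, 3050 to 3150 in SA, 2660 to 2880 in SA:ANH, 4210 to 4360 in ANH and 3620 to 3730 in RES. Its part in the Cckbr, Vipr1, Sstr2 and Npy1r results was not tested.

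**Figure D4:**
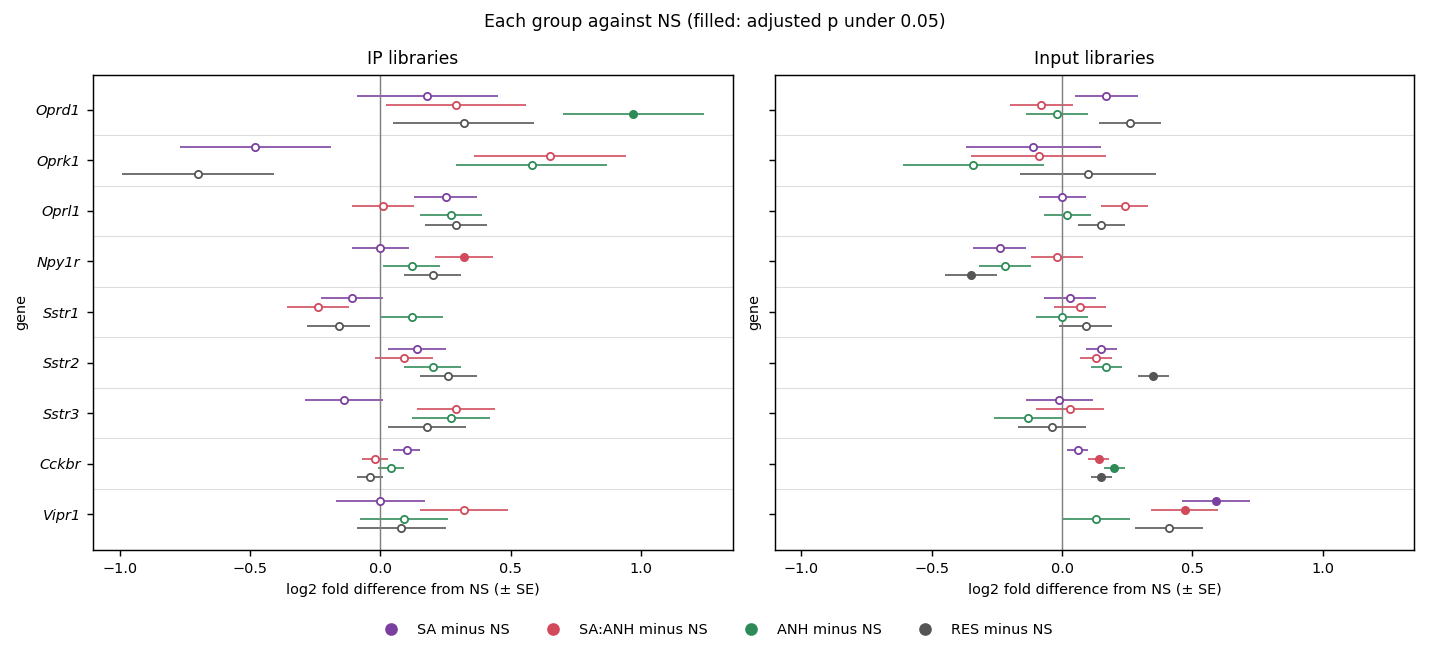
Log2 fold difference of each subtype from NS (x axis, points ± SE) for the 9 tested receptors in IP (left) and Input (right), with filled points where the adjusted p is under 0.05. In IP only Oprd1 in ANH and Npy1r in SA:ANH are filled, and in Input Npy1r in RES lies below 0 while the other filled points (Sstr2, Cckbr and Vipr1) lie above it.

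Counted over all comparisons with NS, 2 of 36 tests of receptors passed in IP and 7 of 36 in Input. In IP the receptors passing were 0 of 9 in SA, 1 of 9 in SA:ANH, 1 of 9 in ANH and 0 of 9 in RES, where 16.6%, 19.7%, 7.4% and 4.36% of all genes passed. In SA 2 receptors and in RES 3 had an unadjusted p under 0.05 in edgeR, and neither DESeq2 nor limma voom called any there. In Input they were 1, 2, 1 and 3 of 9, where 2.83%, 5.65%, 2.62% and 3.23% of all genes passed. The median log2 difference of the 9 receptors in IP was 0.00, 0.29, 0.20 and 0.18 in SA, SA:ANH, ANH and RES, beside medians of 0.02, 0.01, 0.00 and 0.01 over all genes. In Input it was 0.03, 0.07, 0.00 and 0.15, beside 0.00, 0.00, 0.01 and 0.00. Since each comparison uses the same NS libraries, these counts are not independent.

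A test of any difference among the 5 groups passed for Oprk1 (adjusted p = 0.000516) and Oprd1 (0.0274) in IP, 2 of 9 where 33.1% of all genes passed. DESeq2 also called Oprl1 (adjusted p = 0.0381), Sstr3 (0.0467) and Npy1r (0.0479) in IP, and limma voom Npy1r (0.0437). Of 16670 genes, DESeq2 called 6180 and limma voom 6258 there, against 5524 in edgeR. In Input the test passed in edgeR for Sstr2 (adjusted p = 0.00152), Cckbr (0.00455), Vipr1 (0.00527) and Npy1r (0.0301), 4 of 9 where 12.9% of all genes passed. Without SA:ANH Input replicates 1 and 2 the adjusted p of these 4 were 0.00295, 0.00769, 0.00767 and 0.0168. Of pairs of subtypes, 7 of 54 tests passed in IP and 2 of 54 in Input. Over all genes, 9.21% (ANH against RES) to 23% (SA against ANH) passed in the IP pairs. In the Input pairs 0.693% (SA:ANH against RES) to 7.88% (SA against ANH) passed, and both Input calls were in SA against ANH. In the remaining comparisons the receptors gave no call: in IP, SA against RES (11.6% of all genes) and the contrast of the 2 subtypes with SA in their name against the other 2 (21.4%). In Input they were SA against SA:ANH (3.54%), SA against RES (1.1%), SA:ANH against ANH (1.64%), SA:ANH against RES (0.693%), ANH against RES (4.22%) and the SA contrast (2.17%). Nor did any receptor pass the test of SA against NS between fractions, where 9.05% of all genes did. At an unadjusted p under 0.05 in edgeR, each of these comparisons held between 1 and 4 receptors. DESeq2 called Sstr2 higher in RES than in SA (adjusted p = 0.0310), SA:ANH (0.0288) and ANH (0.0299) in Input, and Npy1r higher in SA:ANH than in RES (0.0430). Limma voom called Sstr2 in ANH against RES in Input (0.0483) and Cckbr in SA against RES in IP (0.0466).

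Transcripts of the peptide precursors for these receptors were mostly lower on the tagged ribosomes. Of 12 ligand precursor genes, 10 could be tested, and 8 were lower and 2 higher in IP, where 42.6% of all genes were lower and 32.8% higher. The median log2 difference was -1.76, beside -0.08 over all genes. Vip was at 3.34 CPM in IP and 64.8 CPM in Input (log2 -4.30), Sst at 43.0 and 497 CPM (-3.75), and Npy at 41.7 and 236 CPM (-2.55). Pnoc, the precursor of nociceptin, was at 0.902 and 10.6 CPM (-3.93), Cort at 0.764 and 5.82 CPM (-2.97), Pdyn, the precursor of dynorphins, at 23.5 and 46 CPM (-0.97), Pomc at 2.96 and 5.55 CPM (-0.92) and Penk, the precursor of enkephalins, at 44.0 and 60.4 CPM (-0.50). Cck was higher in IP over the 5 groups, at 1130 and 1034 CPM (0.10). This did not hold in every group, since in NS the Cck mean was lower in IP than in Input. Its IP mean was highest in SA:ANH. Adcyap1, which encodes pituitary adenylate cyclase-activating polypeptide, was also higher in IP, at 45.0 and 22.0 CPM (1.03). All 10 adjusted p were at most 4.5e-08.

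Across groups in IP, the precursor of the main Oprd1 ligands differed in SA, where no difference of the receptor from NS passed. Penk was at 23.3 CPM in SA and 50.2 CPM in NS (log2 -1.09 ± 0.08, adjusted p = 9.5e-12), and at 51.9 CPM in ANH (0.04 ± 0.08, adjusted p = 0.849). Pdyn, whose peptides act on Oprk1, was between 21.4 CPM in SA and 27.9 CPM in ANH, and its ANH contrast was 0.17 ± 0.08 (adjusted p = 0.206). Sst rose in RES to 78.1 CPM from 27.8 CPM in NS (1.49 ± 0.07, adjusted p = 8.93e-17) and in ANH to 57.2 CPM (1.03 ± 0.07), and was lower in SA at 14.6 CPM (-0.91 ± 0.08). Inhibitory neuron markers, which include Sst, summed to 487 CPM in NS, 407 in SA, 442 in SA:ANH and 426 in ANH on average, and to between 446 and 486 CPM in RES. Oligodendrocyte markers summed to 274, 221, 161, 681 and 1010 CPM in the same groups, beside Sst at 27.8, 14.6, 37.4, 57.2 and 78.1 CPM. The part of either list in the Sst result was not tested. Npy rose in ANH to 62.8 CPM from 29.7 CPM (1.07 ± 0.09, adjusted p = 3.41e-10), and Cck in SA:ANH to 1554 CPM from 940 CPM (0.75 ± 0.04, adjusted p = 3.82e-15).

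In Input, Penk was lower in ANH than in NS, at 49.6 and 64.7 CPM (-0.38 ± 0.06, adjusted p = 0.000103), with Npy at 222 and 252 CPM (-0.18 ± 0.04, adjusted p = 0.0029) and Sst at 479 and 530 CPM (-0.14 ± 0.04, adjusted p = 0.0209). Cck in ANH was at 985 CPM in Input against 1024 CPM in NS (-0.05 ± 0.03, adjusted p = 0.344), where Cckbr was higher. Vip in SA was at 62.1 CPM against 65.8 CPM (-0.08 ± 0.06, adjusted p = 0.561), where Vipr1 was higher.

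Other receptors for the same ligands numbered 9, of which 7 were tested between the fractions, 3 higher and 3 lower in IP with a median of 0.11. Of all genes, 32.8% were higher and 42.6% lower. Npy5r was at 4.99 CPM in IP and 2.88 CPM in Input (0.79 ± 0.13, adjusted p = 1.19e-07). Adcyap1r1, the receptor that prefers the product of Adcyap1, was at 26.9 and 82.5 CPM (-1.65 ± 0.04, adjusted p = 7.25e-41), and Vipr2, the other receptor for vasoactive intestinal peptide, at 0.166 and 1.41 CPM (-3.32 ± 0.41, adjusted p = 1.04e-10). In the ANH contrast in IP, Adcyap1r1 was the only 1 of 7 to pass (0.48 ± 0.09, adjusted p = 0.000141), beside 11.6% of all genes. It was at 31.6 CPM in the 2 ANH subtypes and 23.0 CPM in the other 2.

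Among 38 further neuropeptide receptors, 28 were tested between the fractions, 9 higher and 13 lower in IP with a median of -0.45. These counts are near the shares over all genes, 32.8% higher and 42.6% lower. In the ANH contrast in IP, where 11.6% of all genes passed, 23 were tested, with 2 higher and 3 lower: Crhr1, the main receptor of corticotropin-releasing hormone, was at 30.3 and 25.2 CPM (0.26 ± 0.08, adjusted p = 0.0205), Rxfp1, a relaxin receptor, at 13.4 and 9.54 CPM (0.49 ± 0.15, adjusted p = 0.0256), Mc4r, a melanocortin receptor, at 1.49 and 4.40 CPM (-1.5 ± 0.34, adjusted p = 0.00215), and Mchr1, the receptor of melanin-concentrating hormone, at 49.4 and 61.8 CPM (-0.32 ± 0.06, adjusted p = 0.000314).

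Downstream of the receptors, 23 G protein and effector genes were tested, of which 15 were higher and 6 lower in IP than in Input. Their median was 0.37, and 32.8% of all genes were higher and 42.6% lower. Gnai1, an inhibitory alpha subunit, was at 319.6 and 185.5 CPM (0.78 ± 0.02), and Gnaq, the alpha subunit of Gq, at 139 and 50.9 CPM (1.45 ± 0.03), whereas Gnai2 was lower at 229.6 and 362 CPM (-0.66 ± 0.02). In the ANH contrast in IP 5 of 23 were higher and 2 lower, beside 11.6% of all genes, among them Gnal, the alpha subunit that drives cyclic AMP in striatum and olfactory neurons (0.30 ± 0.04, adjusted p = 5.07e-07). Of 20 receptor regulators, which end signalling by phosphorylation, arrestin binding, faster GTP hydrolysis or peptide breakdown, 7 were higher and 11 lower in IP. The shares over all genes were the same 32.8% and 42.6%. Rgs10 was at 5.20 and 25.7 CPM (-2.31 ± 0.08) and Rgs2 at 119 and 74.3 CPM (0.68 ± 0.02). In the same contrast 4 of 20 regulators were higher and 2 lower, beside the same 11.6%, with Rgs8 at 58.0 and 44.2 CPM (0.39 ± 0.07, adjusted p = 0.000296) and Rgs14 at 133 and 158 CPM (-0.22 ± 0.04, adjusted p = 0.000322).

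The genes whose pattern over the 10 groups was most like that of a receptor were found by the root mean square (RMS) difference of centred group means of log2 CPM, among 10640 genes. Cckbr was closest to Smpd1 (0.040), Sstr1 to Hcfc1 (0.053), Oprl1 to Rgl2 (0.060), Sstr2 to Slc3a2 and Sstr3 to Dok5 (0.069 each), Npy1r to Tceal1 (0.081), Oprd1 to Gpr137b (0.097) and Vipr1 to Fam222b (0.099). Oprk1 had no neighbour as close, with the muscarinic receptor Chrm2 at 0.266, beside a median of 0.522 over all candidates. The second genes of the other receptors were Slc39a3, Cnnm3, Shq1, Tmem189, Egln1, Plaat1, Sesn2 and Rassf3 in the same order, at RMS differences of 0.043 to 0.157. The median over all candidates ran from 0.227 for Cckbr to 0.539 for Oprd1, so a small RMS difference is less marked where that median is low.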

How the data were processed

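RNA-seq libraries were made from frozen mPFC (SMART-Seq v4 with TruSeq v2, NovaSeq, 2 × 100 bases), per the labels' protocols. Bowtie2 2.2.3, TopHat2 2.0.13, Trimmomatic 0.32 and the build mm10 are listed, per the submitters' processing notes, with no role or order. For the counting tool and its strand setting, nothing is given in the sources used here. The authors deposited 1 table of expected counts per gene, which were rounded to whole numbers here. Tests used edgeR 4.0.16 in R 4.3.3: TMM scaling, filterByExpr with a minimum count of 10, the quasi-likelihood test without a replicate block, and Benjamini-Hochberg adjustment at 0.05. This left 16670 genes in IP, 18170 in Input and 18937 in both. Levels are CPM with TMM factors of all 60 libraries. The SE is the size of the log2 difference divided by the square root of F. Expected counts of replicates differed by more than sampling noise in all 150 pairs. The common coefficient of variation in edgeR was 23.7% over IP and 18.6% over Input libraries.

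The script was tested on simulated data. Alternatives were RLE scaling, DESeq2 1.42.0, limma 3.58.1 (voom with quality weights), no filter, fits of 12 libraries and a replicate block. Leaving out single libraries, and SA:ANH Input replicates 1 and 2, was chosen after seeing the data. The receptors and gene lists were chosen with earlier results of these data known. Named genes are all 10 receptors, their ligand precursors, Rpl10a, at most 4 genes of each other list with the smallest p, and the 2 genes most like each receptor with a mean of at least 5 CPM. One of the latter is not reported here. Gene positions are from GENCODE M21 on GRCm38, since the positions in the table are of another build.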

Additional observations from a re-analysis of the deposited data

Results flagged for a closer look

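Single outlying libraries were sought by Dixon's test in 100 sets of 6 libraries, 1 for each receptor in each group and fraction. Chance flags about 1 in 20 sets of normally distributed values. That rate does not hold for Oprm1, which had 0 counts in 26 libraries, so the number flagged is not read as an excess. In 8 sets a single library lay far from the other 5. For Oprm1 these were NS IP replicate 6 at 0.836 CPM (others 0 to 0.279), SA IP replicate 3 at 0.158 CPM (others 0), SA:ANH IP replicate 2 at 0.0897 CPM (others 0), ANH IP replicate 6 at 0.686 CPM (others 0 to 0.148) and SA:ANH Input replicate 3 at 0.676 CPM (others 0.043 to 0.255), all on at most 16 counts. Oprd1 in RES IP replicate 5 was at 7.05 CPM (others 5.38 to 5.87). Oprk1 in SA:ANH IP replicate 6 was at 12.9 CPM (others 7.0 to 8.39), and the Oprk1 calls that involve SA:ANH held without that library. Sstr2 in SA:ANH IP replicate 1 was at 35.6 CPM (others 43.3 to 46.8).

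A test of the difference itself, by edgeR's quasi-likelihood test, found 3 differences from NS that were unlike in IP and Input. The difference of ANH was larger in IP by 1.0 for Oprd1 (adjusted p = 0.0401). That of RES was larger in IP by 0.55 for Npy1r (adjusted p = 0.024). That of SA:ANH in IP minus that in Input was -0.19 for Cckbr (adjusted p = 0.0267), and -0.13 (adjusted p = 0.249) without SA:ANH Input replicates 1 and 2.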

How the results depend on the processing

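No receptor comparison with a call in any fit changed direction. Of 59 receptor comparisons called in the reported fits and 16 called only under an alternative, 431 alternative values stayed on the same side of the threshold, 26 lost the call and 23 gained it. With no filter on low counts more genes were tested, Oprm1 among them. The receptor calls were then 1 against NS in IP, 4 against NS in Input and 1 for differences unlike in the fractions. Pairs in Input gave 1 receptor call and contrasts in Input 0. Against NS these fits called 565 (RES) to 2989 (SA:ANH) of 31622 genes in IP. In Input they called 387 (ANH) to 769 (SA:ANH) of 33967. Differences unlike in the fractions were 352 (RES) to 2439 (SA:ANH) of 35644. Pairs in Input gave 102 (SA:ANH against RES) to 1165 (SA against ANH), and contrasts 322 (SA) and 1174 (ANH). DESeq2 gave 5 of 9 calls for any difference in IP, where it called 6180 of 16670 genes and edgeR 5524. For pairs in Input it gave 6 of 54, and called 255 (SA:ANH against RES) to 1998 (SA against ANH) of 18170 genes. The cause was not tested. Among same-numbered libraries, 10 of 30 IP and Input pairs, and 18 and 20 of 60 pairs within IP and Input, had a correlation of deviations over 0.1. The median correlations were 0.047, 0.035 and 0.07. No differently numbered pairs are given beside them, so whether same-numbered libraries share a mouse or batch cannot be told. With the replicate number as a block, the contrasts in Input gave 0 calls (Oprd1 ANH contrast, adjusted p = 0.0527). The block gained Npy1r in SA against SA:ANH (0.0388) and Cckbr in SA against RES (0.0369) in IP, and Vipr1 in SA against NS between fractions (0.0471), by edgeR's adjusted p. Over all genes, DESeq2 moved the number called in Input from 515 to 808 for SA against NS, 476 to 728 for ANH, 587 to 902 for RES, 643 to 970 for SA against SA:ANH, 200 to 437 for SA against RES, 298 to 561 for SA:ANH against ANH, 126 to 255 for SA:ANH against RES, 766 to 1263 for ANH against RES and 394 to 638 for the SA contrast. Without SA:ANH Input replicates 1 and 2, the numbers were 207 in place of 1026 for SA:ANH against NS, 147 for SA against SA:ANH and 140 for SA:ANH against ANH. Fits of 12 libraries gave 276 for SA against SA:ANH, 117 for SA against RES, 173 for SA:ANH against ANH and 77 for SA:ANH against RES, and no filter gave 131 for SA against RES. Higher genes were 40.1% of calls in the SA contrast in Input and 50.9% with DESeq2, and 52.4% of the RES differences unlike in the fractions and 63.1% with RLE scaling. Depth limits Oprm1. Oprk1 had 32 to 276 counts per IP library and Oprd1 28 to 241. The SE of their log2 differences from NS in IP was 0.27 to 0.29, and its source was not tested.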
